A study of Rattus norvegicus with 6 samples.

Results

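Drd2 Adora2a nuclei of the rat nucleus accumbens were taken from raw single-nucleus counts by a fixed rule on unique molecular identifiers (UMIs), tags that let copies of the same captured RNA be counted once. A nucleus had to hold at least 500 detected genes, at most 5% mitochondrial UMIs, at least 2 UMIs of Gad1 and Gad2 together and at most 1 UMI of the glial genes Mog, Aqp4, Pdgfra and Csf1r together. It also had to hold at least 2 UMIs of Drd2, at least 3 UMIs of Drd2, Adora2a, Gpr6 and Gpr52 together, no Drd1 UMI, at most 1 Chst9 UMI and at most 1 UMI of the cholinergic genes, of which Slc5a7 was used here. The rule found 4579 nuclei among 64260 barcodes, of which 61609 passed the quality filter and 32416 were positive for Gad1 and Gad2. Saline libraries 1, 2 and 3 held 674, 1080 and 784 Drd2 nuclei, and naloxone libraries 4, 5 and 6 held 593, 874 and 574.

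Spiny projection neurons are the GABA-releasing output cells of the striatum. Those of the indirect pathway carry the D2 dopamine receptor and the adenosine receptor encoded by Adora2a, which act in opposite directions on cyclic AMP, and make the opioid peptide precursor Penk, while those of the direct pathway carry the D1 receptor and make the dynorphin precursor Pdyn. Opioid receptors couple to inhibitory G proteins, and naloxone, an opioid receptor antagonist, precipitates withdrawal in animals that have taken an opioid.

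All rats were Sprague-Dawley, of both sexes and 90 to 120 days old, and all had self-administered heroin: 7 days on FR1, 4 days on FR3, a progressive ratio test on day 12 and FR3 again on days 13 and 14, where FR gives the responses needed per infusion. After the last session they received saline or naloxone, and brains were taken 1 hour later. The 6 libraries, 3 per group, pooled males and females and came from 12 rats, 6 of each sex. No group without heroin was compared here, and p-values measure the spread between these pooled libraries.

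The summed Drd2 nuclei held 5773897 to 9859740 UMIs per library, with medians of 7497.5 to 15014 UMIs per nucleus. The labels state 44592 nuclei, fewer than the barcodes in the files; 463 barcode sequences occurred in more than 1 library, and 4 were a Drd2 nucleus in more than 1. Called doublets made up 2.37% to 4.17% of Drd2 nuclei. Nuclei with Xist and no Y-linked UMI made up 34.7% to 39.5% of the Drd2 nuclei in saline libraries 1, 2 and 3 and naloxone library 4, but 47.2% in naloxone library 6 and 58.6% in naloxone library 5, so a fit with sex as a covariate is given beside the naloxone counts.

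The genes of the rule describe the choice and carry no test. A Drd2 nucleus held a median of 5 Drd2 UMIs, and 8.65% of the nuclei sat at the minimum of 2. Adora2a UMIs were seen in 52.5% of the nuclei, Gpr6 UMIs in 21.1% and Gpr52 UMIs in 21.5%. The 671 nuclei just inside the limit, with 3 UMIs over the 4 genes, held 0.832 Penk UMIs per nucleus, and the 635 nuclei just outside it held 0.743, at median depths of 7463 and 7469 UMIs. A further 212 nuclei were left out for Drd1 UMIs alone.

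Most of the gated nuclei carried the spiny neuron profile, but not all. Levels are in counts per 1000000 UMIs (CPM). The 11 pan-spiny markers, among them Rarb, Pde10a, Meis2, Foxp1 and Rgs9, summed to 10236 to 10928 CPM in the saline and 9598 to 11592 CPM in the naloxone libraries. The 8 direct pathway markers measured, of 9 listed, summed to 29.4 to 39.0 CPM in the saline and 36.7 to 39.3 CPM in the naloxone libraries with Drd1 at 0 by the rule; Tac1 was not analysed here. Glial markers were low, and their ranges overlapped between groups: the 5 oligodendrocyte markers summed to 149 to 223 CPM in the saline and 124 to 223 CPM in the naloxone libraries, and the 4 astrocyte markers to 55.4 to 124 CPM in the saline and 51.9 to 95.4 CPM in the naloxone libraries. These sums include Mog and Aqp4, which the rule limited, so their low level was partly set by the rule. The part of glial RNA in the results was not tested. Oligodendrocyte nuclei held 0.214 Penk UMIs per nucleus against 1.24 in Drd2 nuclei, at median depths of 1448.5 to 2379 UMIs per library, but relative to all UMIs Penk stood at 98.7 CPM there against 119 CPM in Drd2 nuclei. Clustering, described further on, set apart 657 of the 4579 nuclei (14.3%) as mixed with other cells or poor in spiny markers, and the main counts are also given without them.

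The share of Drd2 nuclei among Gad-positive nuclei was 14.96%, 14.4% and 16.4% in the saline and 11.5%, 14.9% and 12.5% in the naloxone libraries. Naloxone library 5 lay within the saline range. The means of 15.2% ± 1.04 and 13.0% ± 1.77 (SD, n = 3 each) gave p = 0.2 in a two-sided exact permutation test, in which 0.1 is the smallest possible value.

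The comparison with Drd1 nuclei asked what else set Drd2 nuclei apart. Drd1 UMIs were sparse: 583 nuclei, 56 to 155 per library, held at least 2 of them with no Drd2 UMI under the other conditions of the rule, and 80.8% of these sat at exactly 2. Their library medians were 8620.5 to 18404 UMIs. With library as a block, 1131 of 12164 genes differed (9.3%), 528 higher (4.34%) and 603 lower (4.96%) in Drd2 nuclei. Genes of the rule are in these totals and are not described as results.

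Among genes outside the rule with at least 20 CPM in either class and the same sign in all 6 libraries, the largest positive difference was in Calcr, the calcitonin receptor, at 162 ± 49.3 CPM against 9.22 ± 8.26 CPM (SD, n = 6 libraries), a log2 difference of 4.68 (SE 0.15). Grik3, a kainate receptor subunit, stood at 212 ± 12.0 CPM against 16.3 ± 6.61 CPM, and Oprd1, the delta opioid receptor, at 67.8 ± 9.35 CPM against 12.7 ± 5.86 CPM. Penk, which the rule did not use, stood at 119 ± 26.8 CPM against 29.4 ± 14.8 CPM, with a log2 difference of 2.15 (SE 0.11). For these 4 genes the 6 Drd2 values lay above the 6 Drd1 values: the lowest Drd2 value of Penk was 97.2 CPM and the highest Drd1 value 56.2 CPM. The genes had been chosen by adjusted p and sign, so this separation is a description. Its share over all genes was not counted. The rule for naming genes also gave Ndst3, an enzyme of heparan sulfate synthesis, the muscarinic receptor Chrm3, the calcium channel subunit Cacna2d2, the netrin receptor Unc5d, the parathyroid hormone receptor Pth2r, Zfhx4, Klhl1 and Maf, with log2 differences from 2.31 for Ndst3 to 1.73 for Zfhx4. Of these, Klhl1 fell from 2.30 to 0.42 without the nuclei set apart (adjusted p = 0.474), and Maf from 1.93 to 0.07 with looser gates (adjusted p = 0.871), both by edgeR.

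Genes lower in Drd2 nuclei included known direct pathway genes. Foxp2, a transcription factor, stood at 216 ± 18.8 CPM against 1647 ± 222 CPM, a log2 difference of -2.94 (SE 0.05). Pdyn stood at 3.28 ± 0.143 CPM against 27.5 ± 9.58 CPM, and Isl1, a transcription factor of direct pathway neurons, at 6.15 ± 1.39 CPM against 48.9 ± 6.46 CPM. Chrm4, the M4 muscarinic receptor, stood at 3.49 ± 0.758 CPM against 33.9 ± 5.76 CPM. All 4 had every Drd2 value below every Drd1 value, again a description of genes chosen by adjusted p and sign. The share of all genes with such a separation was not counted here either. Under the same limits the largest negative differences were in the cytokine receptor subunit Il20ra (-4.29, SE 0.22), Slc35d3 (-3.72, SE 0.21) and the sulfotransferase Ust (-3.63, SE 0.09), and Ebf1, Lingo2, Shisa6, AABR07007642.1 and the potassium channel Kcnk13 were also named by the rule.

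**Figure D1:**
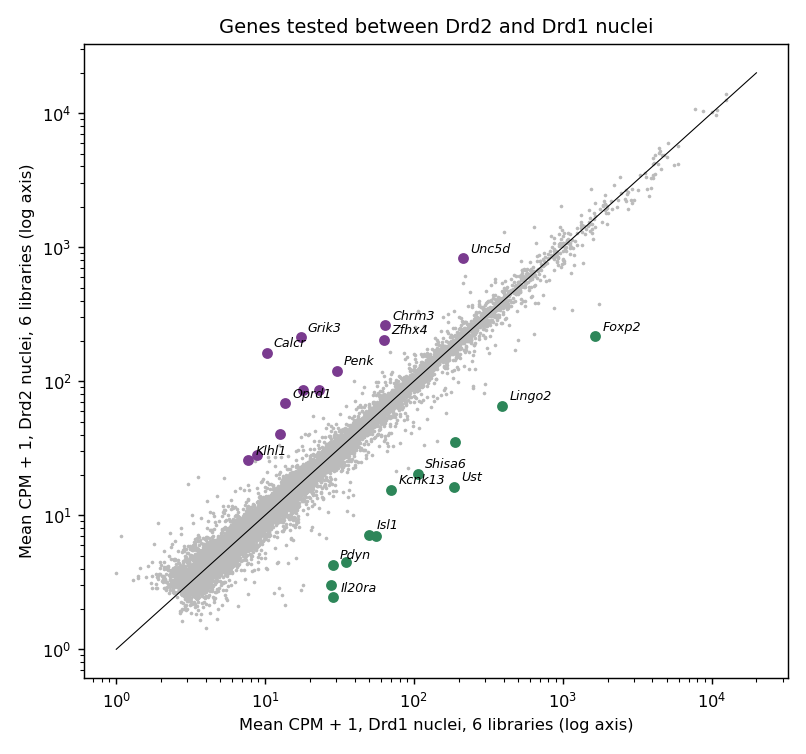
Mean CPM + 1 of each gene outside the rule in Drd1 nuclei (x, log axis) and Drd2 nuclei (y, log axis), over 6 libraries, with equality as the line. Coloured points are the 12 named genes higher and the 12 named genes lower in Drd2 nuclei: Calcr, at 162 against 9.22 CPM, and Foxp2, at 216 against 1647 CPM, lie far from the line.

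The lists below are read beside the 4.34% of all genes called higher and the 4.96% called lower in Drd2 nuclei (9.3% in all). Among 6 tested opioid genes, Oprd1 and Penk were higher in Drd2 nuclei and Pdyn and the kappa receptor Oprk1 (9.82 ± 3.81 CPM against 34.7 ± 4.97 CPM) were lower, while the mu receptor Oprm1 was not called, at 37.0 ± 10.1 CPM against 40.1 ± 11.8 CPM. Of 13 muscarinic and serotonin receptors 4 were higher and 4 lower, with Htr2c at 1305 ± 100.3 CPM against 399.9 ± 39.8 CPM. Of 52 genes of the dopamine, adenosine and cyclic AMP pathway 4 were higher and 15 lower; the phosphodiesterases Pde4d and Pde4b had log2 differences of 1.14 and 0.83, and the adenylyl cyclase Adcy2 one of -1.89. Of 22 glutamate receptors 5 were higher and 6 lower, of 32 potassium channel genes 3 and 6, and of 25 striatal transcription factors 7 and 7, with Dach1 at 1.64 and Six3 at 0.86. The medians of these lists lay between -0.13 and 0.15 on the log2 scale, beside 0.0079 over all genes. The count of 1131 became 2099 with looser and 433 with stricter gates, 740 with DESeq2 and 547 with Drd1 nuclei that also held a Pdyn UMI. It became 1505 without the nuclei set apart, of which 1005 were among the 1131. Stricter gates left only 6 to 38 Drd1 nuclei per library and the Pdyn condition 6 to 39.

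Naloxone was compared with saline on the 6 library sums of Drd2 nuclei. Of 12899 genes 18 differed (0.14%), 11 higher (0.0853%) and 7 lower (0.0543%) under naloxone, and 1521 had an unadjusted p under 0.05 (11.8%). For each of the 18, no naloxone value lay within the range of the saline values, a separation seen in 2296 of all genes tested (17.8%).

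Of the genes that rose, Camk1g, a calcium/calmodulin-dependent kinase, was at 14.2, 13.8 and 16.1 CPM in the saline and 29.6, 36.7 and 33.4 CPM in the naloxone libraries, a log2 change of 1.18 (SE 0.12, adjusted p = 0.00685) by edgeR. Bcl2, an inhibitor of apoptosis, was at 63.8, 67.6 and 51.2 CPM against 109, 139 and 174 CPM, a change of 1.23 (SE 0.16, adjusted p = 0.0135). Ubash3b, a phosphatase acting on tyrosine kinase signalling, was at 21.2, 25.9 and 21.5 CPM against 48.3, 52.4 and 73.6 CPM, a change of 1.36 (SE 0.16, adjusted p = 0.00878). Naloxone library 6 had the highest value of Bcl2 and Ubash3b, and naloxone library 5 that of Camk1g. Gng2, a G protein gamma subunit, rose from 19.9 ± 1.52 to 45.3 ± 8.35 CPM (SD, n = 3 each) and was the single called gene of the cyclic AMP pathway list.

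Calcr, already high in Drd2 nuclei, was at 111, 115 and 131 CPM in the saline and 229, 193 and 192 CPM in the naloxone libraries, a change of 0.79 (SE 0.09, adjusted p = 0.00878) by edgeR. The transcription factors Zbtb16 and Bach2 rose by 1.15 and 0.70 on the log2 scale, Ankrd55 by 0.89, Osbpl10, of the oxysterol-binding protein family, by 0.57, and Chga, which encodes chromogranin A of secretory granules, by 0.54. In oligodendrocyte nuclei Zbtb16 stood at 509 CPM, against a naloxone mean of 33.5 CPM in Drd2 nuclei, and Bach2 at 469 CPM against 202 CPM. Gng2, at 21.2 CPM there, and Chga, at 69.8 CPM, lay between their saline and naloxone means in Drd2 nuclei. Ubash3b, at 20.6 CPM there, lay just below its saline mean of 22.9 CPM. Camk1g, Bcl2, Calcr, Ankrd55 and Osbpl10 lay further below theirs. The phosphatase Cdc14a, at a mean under 10 CPM and so named after its values were seen, had the largest change of the 11: 3.73, 4.99 and 4.26 CPM against 17.3, 14.4 and 12.1 CPM, or 1.74 (SE 0.19, adjusted p = 0.00873). Its level in oligodendrocyte nuclei was 20.7 CPM.

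The genes that fell were Haus2, Bcar3, MGC94891, Ivns1abp, Itgav, Chordc1 and Entpd3. Haus2, a subunit of the augmin complex of microtubules, was at 33.3, 25.4 and 26.9 CPM in the saline and 10.9, 8.94 and 14.4 CPM in the naloxone libraries, a change of -1.29 (SE 0.18, adjusted p = 0.0188) by edgeR. Bcar3, an adaptor of integrin signalling, was at 18.3, 20.2 and 16.4 CPM against 8.49, 8.42 and 7.39 CPM, a change of -1.17 (SE 0.14, adjusted p = 0.00878). Chordc1, a co-chaperone of Hsp90, was at 84.4, 75.3 and 80.2 CPM against 52.3, 46.5 and 52.2 CPM, a change of -0.66 (SE 0.09, adjusted p = 0.0179). In all 3 genes every naloxone library was below every saline library. The integrin subunit Itgav, the ectonucleotidase Entpd3, Ivns1abp and MGC94891 fell by 0.67, 0.63, 0.68 and 0.83 on the log2 scale. In oligodendrocyte nuclei Itgav stood at 215, Ivns1abp at 166 and Chordc1 at 119 CPM, above both group means in Drd2 nuclei. Haus2, at 22.4 CPM, and Bcar3, at 11.1 CPM, lay between their group means, and Entpd3 and MGC94891 lay below theirs. What RNA of other cells added to these levels was not tested.

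**Figure D2:**
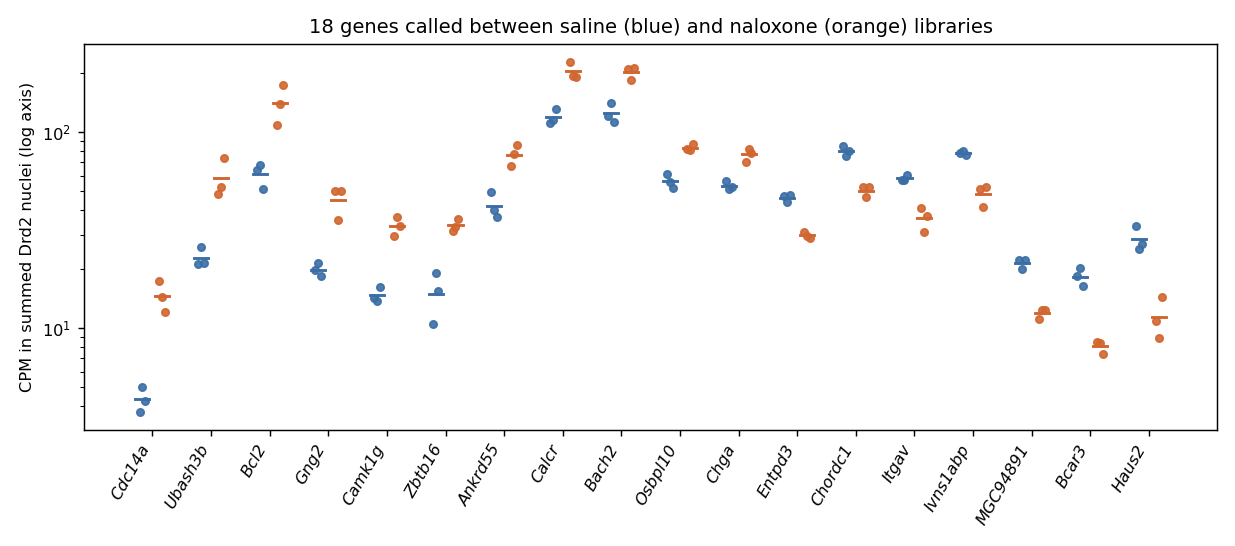
CPM (log axis) of the 18 called genes in the summed Drd2 nuclei of each library; points are libraries and lines are group means. For each gene the 3 naloxone and the 3 saline points occupy separate ranges, for example 29.6 to 36.7 against 13.8 to 16.1 CPM for Camk1g.

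Single libraries decided how many genes were called. By edgeR the count was 0 without saline library 1 (1109 genes at an unadjusted p under 0.05), 5 without saline library 2, 6 without saline library 3 and 194 without naloxone library 5, the library with the most female nuclei. DESeq2 called 104 genes, and edgeR with counts summed separately for male and female nuclei called 33, of which 10 were among the 18. That fit had no library term and treated the male and female sums of a library as independent samples. Its count is therefore not like for like. Without the 657 nuclei set apart, 56 genes were called, all 18 included.

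The listed pathways held few called genes, beside 0.14% of all genes called and 11.8% at an unadjusted p under 0.05. These lists were chosen with earlier results of these data known, so their counts and medians are descriptions and no support. Of 22 tested heat shock and chaperone genes 1 was called, Chordc1, and 2 had an estimate above 0, with a list median of -0.28 beside 0.0016 over all genes. Hsph1, an Hsp110 chaperone, went from 126 to 83.4 CPM (log2 -0.59, adjusted p = 0.0503 by edgeR), Hsp90aa1 from 82.5 to 60.8 CPM (-0.43, adjusted p = 0.0503) and Stip1, which links Hsp70 to Hsp90, from 54.7 to 37.3 CPM (-0.54, adjusted p = 0.0547), and none of these passed. Of 14 glucocorticoid targets 1 was called, Zbtb16, and 11 had an estimate above 0, with a median of 0.27; Fkbp5, a classical target, went from 46.0 to 64.6 CPM (adjusted p = 0.196) and did not pass. None of 26 immediate early genes was called by edgeR, with 6 at an unadjusted p under 0.05: Fos went from 1.43 to 2.24 CPM, Npas4 from 4.15 to 2.42 CPM and Homer1 from 323 to 452 CPM (adjusted p = 0.0842). None of the 6 tested opioid genes was called: Penk went from 113 to 124 CPM, Oprm1 from 29.2 to 44.7 CPM (0.64, adjusted p = 0.105) and Oprk1 from 12.8 to 6.86 CPM (-0.91, adjusted p = 0.106). Bach2 was the single called gene of 22 compartment genes, and the lists of glutamate, GABA-A, muscarinic and serotonin receptors, endocannabinoid genes, potassium channels and striatal transcription factors held none.

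Promoters of chaperone genes are shown because most of that list had estimates below 0. The 250 bases before the start site are from RefSeq on build GRCr8, 5′ to 3′ on the gene's strand, and matches to GAANNTTC, searched on both strands as a pair of heat shock element units, are in capitals.
Hsph1 (chr12:10427118-10427367, strand +): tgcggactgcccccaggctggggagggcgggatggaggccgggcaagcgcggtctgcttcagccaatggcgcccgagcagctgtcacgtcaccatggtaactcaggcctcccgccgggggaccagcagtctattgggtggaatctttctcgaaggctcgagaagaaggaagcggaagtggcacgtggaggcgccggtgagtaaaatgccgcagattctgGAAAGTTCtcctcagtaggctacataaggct
Dnajb1 (chr19:41431142-41431391, strand -): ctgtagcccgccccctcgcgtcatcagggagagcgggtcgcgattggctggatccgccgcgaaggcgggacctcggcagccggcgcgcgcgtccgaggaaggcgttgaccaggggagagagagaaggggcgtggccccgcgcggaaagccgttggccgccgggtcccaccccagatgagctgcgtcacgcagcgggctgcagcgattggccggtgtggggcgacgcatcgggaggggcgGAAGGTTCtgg
Chordc1 (chr8:23650571-23650820, strand +): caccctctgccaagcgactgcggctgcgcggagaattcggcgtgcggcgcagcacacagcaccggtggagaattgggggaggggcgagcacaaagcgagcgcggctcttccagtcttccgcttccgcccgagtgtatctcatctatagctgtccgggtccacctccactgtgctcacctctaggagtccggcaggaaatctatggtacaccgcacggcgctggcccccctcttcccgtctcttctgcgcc
Among the 21 chaperone genes with a RefSeq promoter, GAANNTTC was in 10 (47.6%), Hsph1 and Dnajb1 among them and Chordc1 not, beside 7.71% of all 27457 genes. Of the called genes with a promoter, 9 higher and 7 lower, none held GAANNTTC or the cyclic AMP element TGACGTCA, which 1.78% of all genes held.

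In Drd1 nuclei edgeR called 0 of 8286 genes for naloxone (502 at an unadjusted p under 0.05), with far fewer nuclei behind the sums. Chordc1 and Camk1g had estimates of -0.87 (SE 0.17) and 1.20 (SE 0.31) there, close in size to those in Drd2 nuclei. An interaction term tested the difference between the changes of the 2 classes and called 15 of 12164 genes (0.123%), all with the more positive change in Drd2 nuclei.

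Ubash3b was at 43.7, 34.7 and 28.7 CPM in the saline and 25.8, 34.1 and 39.1 CPM in the naloxone libraries of Drd1 nuclei, where the groups overlapped, and its change was higher in Drd2 nuclei by 1.47 (SE 0.22, adjusted p = 6.90e-04) in edgeR. The change of Bcl2 was higher by 1.09 (SE 0.17, adjusted p = 0.00203). Homer1, a postsynaptic scaffold induced by activity, was at 326, 305 and 336 CPM against 399, 442 and 516 CPM in Drd2 nuclei and at 424, 463 and 401 CPM against 308, 404 and 288 CPM in Drd1 nuclei. Its estimate was above 0 in Drd2 nuclei and below 0 in Drd1 nuclei, and the difference was 0.89 (SE 0.13, adjusted p = 4.71e-04). Oprm1 was at 34.5, 28.2 and 24.9 CPM against 36.5, 48.3 and 49.4 CPM in Drd2 nuclei and at 45.5, 57.3 and 45.6 CPM against 31.0, 24.2 and 36.8 CPM in Drd1 nuclei, a difference of 1.31 (SE 0.21, adjusted p = 0.00203). Neither Homer1 nor Oprm1 was called in either class alone.

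The rule also named the transcription factors Nr4a3 (2.94) and Etv5 (1.66), the ADP-ribosyltransferase Tiparp (2.38), the adaptor Shc3 (1.07) and the adhesion molecule Dscam (0.98). In its own edgeR fit Nr4a3 was at 0.98 in Drd2 nuclei (adjusted p = 0.227) and -1.75 in Drd1 nuclei. Etv5 was at 0.57 and -1.06. Levels in Drd1 nuclei under naloxone were low, at 3.44, 9.91 and 6.74 CPM for Nr4a3 and 1.72, 2.20 and 6.29 CPM for Tiparp. The other called genes were Spred2, Ntrk2, Maml3, Grik1, Grin3a and Sik2. The interaction depended on the processing: 0 genes were called by edgeR with sums by sex (510 at an unadjusted p under 0.05). Stricter gates called 7 genes, none of them among the 15, with Nr4a3 at -0.0895. They left only 6 to 38 Drd1 nuclei per library, so this alternative rests on few nuclei. Looser gates called 36 genes, 9 of the 15 among them. With these gates edgeR put Nr4a3 at 0.54 (adjusted p = 0.531), Tiparp at 1.10 (adjusted p = 0.0783) and Etv5 at 0.82 (adjusted p = 0.0409). Without the nuclei set apart 21 genes were called, 13 of the 15 among them, and Grik1 (0.64, adjusted p = 0.277) and Grin3a (0.70, adjusted p = 0.286) missed the threshold in edgeR. Without naloxone library 5 the count was 27, without naloxone library 6 it was 9, without saline library 1 it was 8 and without saline library 3 it was 7; Homer1, Nr4a3 and Ubash3b kept their call with any library left out.

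**Figure D3:**
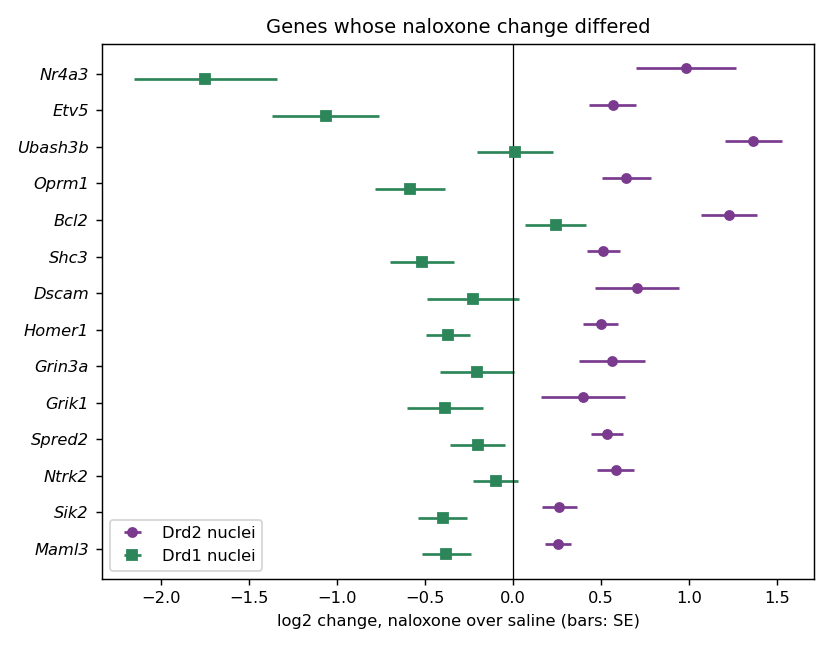
Log2 change from saline to naloxone, with its SE, in Drd2 nuclei and in Drd1 nuclei, each from its own fit, for 14 of the 15 genes with a called difference; Tiparp was below the filter on low counts in Drd1 nuclei. Ubash3b (1.36) and Bcl2 (1.23) have the largest changes in Drd2 nuclei.

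Drd2 nuclei were then clustered without the genes of the rule and without 1580 genes in all, which include each gene with an unadjusted naloxone p under 0.05, so that the changes could be compared within subclusters. This gave 11 subclusters, numbered by size and described by leading genes. Subcluster 1 (1067 nuclei) was led by Plcz1, Trhr and Pcdh15, subcluster 2 (848) by Plch2, Trhde and Gnb4, subcluster 3 (712) by genes that include Dcdc2 and Spag6l, subcluster 4 (528) by Frem2, Cacng5 and Tll1, and subcluster 5 (416) by Casz1, Itga11 and Grpr. Subcluster 8 (193) was led by Piezo2 and Tex16 and subcluster 9 (158) by Peg10.

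The other 4 were set apart by a rule chosen after they were seen, for more than 10% called doublets or a pan-spiny marker sum under 50% of that over all Drd2 nuclei. Subcluster 6 (268 nuclei) was led by the microglial genes Arhgap15, Lyn and Mertk, with 22.8% called doublets, and subcluster 10 (147) held 19.7% called doublets. Subcluster 7 (206) was led by Il1rapl2 and Chrm2, with 21.4% called doublets and 4245 CPM of the pan-spiny markers beside 10456 CPM over all Drd2 nuclei. Subcluster 11 (36) had 5038 CPM of these markers.

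Subcluster 4 had the highest levels of Rgs9 (1467 CPM), Pde10a (3255 CPM) and Adora2a (115 CPM), all known spiny neuron genes, and Calcr at 2.20 CPM. Subcluster 8 had Calcr at 972 CPM and Oprm1 at 108 CPM, each the highest of the 11, with Drd2 at 529.7, Penk at 121, Adora2a at 40.3 and Rgs9 at 286 CPM and no called doublet. Its pan-spiny markers summed to 7185 CPM, beside 10456 CPM over all Drd2 nuclei, the lowest of the 7 subclusters kept. Subcluster 5 had Casz1 at 103 CPM and Penk at 40.6 CPM. These levels describe the subclusters and carry no test.

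Subcluster 8 depended on the genes used for clustering. In a clustering planned first, which kept the naloxone-responsive genes, it was no cluster of its own: of its 193 nuclei 121 (56 saline and 65 naloxone) lay in planned cluster 2, 71 (28 and 43) in planned cluster 4 and 1 in planned cluster 6. Planned clusters 2 and 4 held 741 and 478 nuclei in all. Naloxone calls numbered 9 of 8617 genes in planned cluster 2 (0.104%), 78 of 7015 in planned cluster 4 (1.11%) and 126 of 6366 (1.98%) in planned cluster 7, which held 82.5% of subcluster 5.

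**Figure D4:**
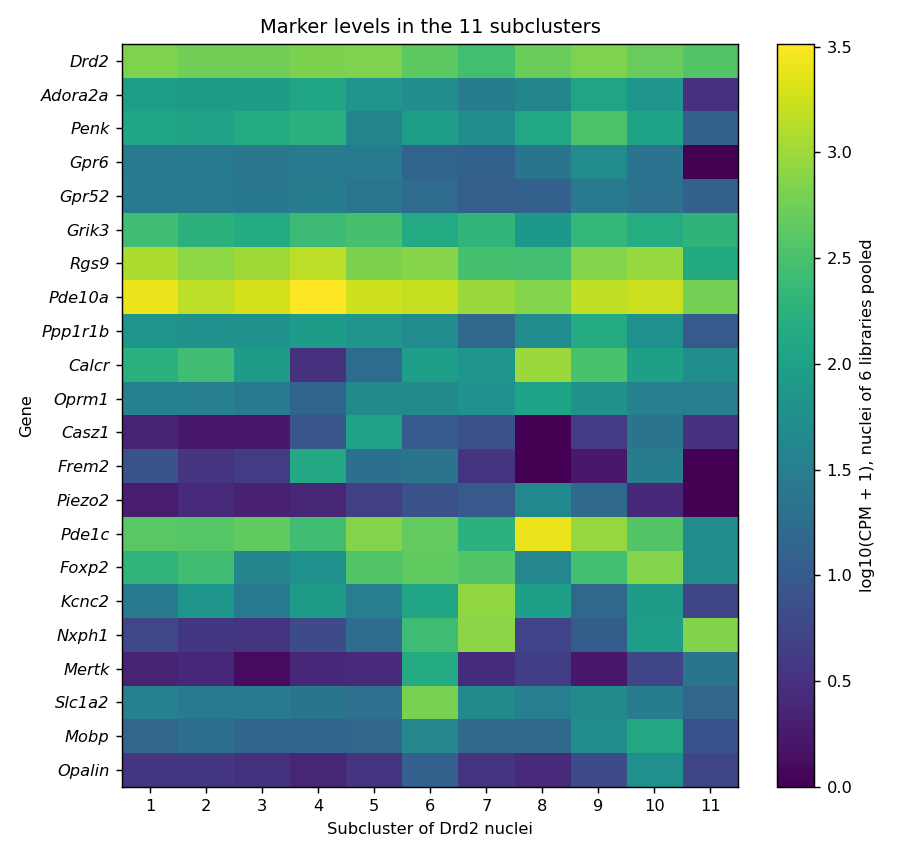
Levels of marker genes (rows) in the 11 subclusters of Drd2 nuclei (columns) as log10(CPM + 1), over the pooled nuclei of the 6 libraries. Drd2 is seen in every column; Calcr is highest in subcluster 8 (972 CPM) and Casz1 in subcluster 5 (103 CPM).

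Subcluster 8 made up 3.48% ± 0.80 of Drd2 nuclei in the saline and 5.57% ± 1.94 in the naloxone libraries (SD, n = 3 each; two-sided exact permutation test, p = 0.3), from 28, 28 and 29 and from 44, 31 and 33 nuclei. The exact permutation p of the 11 subclusters ran from 0.2 to 1.

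Naloxone was tested within the 7 subclusters that had at least 20 nuclei in every library. Subcluster 8 had 64 called genes of 4253 (1.5%), 58 of them higher (1.36%). Subcluster 5 had 64 of 6931 (0.923%), 48 of them higher (0.693%), and subcluster 1 had 36 of 9568 (0.376%). Subclusters 2 and 3 had 8 of 8742 (0.0915%) and 5 of 8793 (0.0569%). By edgeR subclusters 4 and 7 had 0, with 580 and 293 genes at an unadjusted p under 0.05, and DESeq2 called 0 and 1. The count fell to 35 for subcluster 8, 17 for subcluster 5, 8 for subcluster 1 and 0 for subcluster 2 without saline library 3, and to 0 for subcluster 3 without saline library 1. It was 37 for subcluster 5 without saline library 2 and 38 without naloxone library 6, and 21 for subcluster 1 without saline library 1 or 2. Without naloxone library 5 it was 37 for subcluster 8, 73 for subcluster 1 and 7 for subcluster 4. Counts differ with depth and genes tested, so the difference between subclusters was tested gene by gene.

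In subcluster 8, Cdc14a was at 8.56, 0 and 0 CPM in the saline and 184, 209 and 105 CPM in the naloxone libraries. These are 2 UMIs against 153, a ratio of 56.2 of the pooled levels with an exact 95% counting interval of 15.3 to 468.1. The UMIs lay in 2 of 85 saline and 29 of 108 naloxone nuclei. The interval takes each UMI as independent and leaves out the spread between nuclei and between libraries, so it is too narrow for an effect of naloxone. The edgeR change was 5.67 (SE 0.56, adjusted p = 2.49e-08) and exceeded that of the other Drd2 nuclei by 5.05 (adjusted p = 1.33e-08). Outside subcluster 8 the Cdc14a estimate was 0.82 (adjusted p = 0.192) and not called. A Cdc14a UMI was found in 2.38% ± 4.12 of the saline and 27.4% ± 4.77 of the naloxone nuclei of subcluster 8, or 2.38% ± 4.12 and 21.0% ± 4.95 with every nucleus thinned to 3000 UMIs, at library medians of 6279 to 13916 UMIs. In oligodendrocyte nuclei, at lower depth, the shares were 3.96% ± 0.811 and 3.56% ± 1.02, or 8.99% ± 0.463 and 4.77% ± 1.19 thinned, which left out 3224 of 3842 saline and 3645 of 4363 naloxone nuclei as too shallow. Over all Drd2 nuclei they were 3.62% ± 0.418 and 6.61% ± 0.642, or 1.10% ± 0.395 and 2.45% ± 0.401 thinned. At matched depth the share over all Drd2 nuclei was below that in oligodendrocyte nuclei in both groups, while the naloxone share of subcluster 8 was above it. Whether the Cdc14a UMIs of oligodendrocyte nuclei were their own RNA was not tested, so the share over all Drd2 nuclei is not read as expression. Thinned Ubash3b shares over all Drd2 nuclei were 4.73% ± 0.458 in the saline and 11.5% ± 1.65 in the naloxone libraries. In oligodendrocyte nuclei they were 7.52% ± 3.20 and 8.52% ± 3.83.

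Ubash3b in subcluster 8 was at 12.8, 0 and 28.0 CPM in the saline and 151, 418 and 361 CPM in the naloxone libraries, a change of 4.21 (SE 0.42, adjusted p = 2.49e-08) by edgeR that exceeded the rest by 3.15 (adjusted p = 3.26e-13). Bcl2 was at 94.2, 55.6 and 93.4 CPM against 394, 423 and 475 CPM, a change of 2.38 (SE 0.22, adjusted p = 8.00e-09) that exceeded the rest by 1.30 (adjusted p = 2.33e-05). Cdc14a, Ubash3b and Bcl2 each kept their call in subcluster 8 with any library left out. Calcr itself was at 531, 573 and 666 CPM against 1543, 1614 and 859.8 CPM and Homer1 at 269.8, 267 and 318 CPM against 874, 656 and 610.4 CPM, with changes above the rest by 0.61 (adjusted p = 0.0219) and 0.91 (adjusted p = 6.73e-05). Oprm1 was at 94.2, 38.9 and 46.7 CPM against 127, 209 and 127 CPM (log2 1.30, adjusted p = 0.0102), and its change was not called as different from the rest (adjusted p = 0.394).

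Other named genes that rose in subcluster 8 included the transcription factor Etv5 by 2.79, the growth factor receptor Fgfr1 by 2.38 and the adaptor Shc3 by 1.92. Etv5 missed the threshold without saline library 3 (2.26, adjusted p = 0.0837 by edgeR), and the change of Fgfr1 was not called as different from the rest (adjusted p = 0.625). The named genes that fell were A630010A05Rikl (-1.94), Actr3b (-1.03), Gng7 (-0.80) and Dgkh (-0.78). None of these falls was called as different from the rest (adjusted p from 0.227 to 0.732 by edgeR). With libraries left out in turn, Dgkh missed the threshold in 5 fits and A630010A05Rikl and Actr3b in 2 each. Gng7, the gamma subunit of the striatal stimulatory G protein, was at 518, 550.3 and 454 CPM against 319.8, 277 and 263 CPM. Of the 64 called genes 6 had been used in clustering. Drd2 nuclei chosen only by a UMI of Piezo2 or Tex16, 261 in number and 63 of them in subcluster 8, had Cdc14a at 8.88, 7.84 and 1.90 CPM against 109.8, 41.4 and 28.2 CPM, and the other Drd2 nuclei had it at 3.46, 4.81 and 4.39 CPM against 9.91, 13.0 and 10.6 CPM. The groups were apart in both sets. Calcr overlapped between groups in the nuclei chosen this way, at 361, 312 and 558 CPM against 748, 347 and 486 CPM. It was apart in the others, at 98.2, 102 and 107 CPM against 188, 185 and 165 CPM. The others held 130 nuclei of subcluster 8, so this choice cannot show whether its larger Cdc14a and Calcr changes hold.

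In subcluster 5, Ntrk2, the receptor of the growth factor BDNF, was at 585, 576 and 622 CPM in the saline and 1164, 1465 and 1329 CPM in the naloxone libraries, above the rest by 0.70 (adjusted p = 0.00177) in edgeR. Homer1 was at 352, 259 and 314 CPM against 712, 794 and 658 CPM, above the rest by 0.83 (adjusted p = 0.00190). Ubash3b and Bcl2 changed by 2.28 and 2.18, and neither was called as different from the rest (adjusted p = 0.0549 and 0.192). Tmem178a, Fgfr1, the sialyltransferase St8sia6 and Ankrd55 rose by 2.24, 2.10, 1.85 and 1.52. Itgav was at 33.6, 30.8 and 33.9 CPM against 13.3, 9.17 and 3.25 CPM, a change of -2.08. Osbpl3, A630010A05Rikl, Nrip3, Cdh7 and Tle1 fell by 1.34, 1.06, 1.01, 0.89 and 0.89. The genes from Tmem178a to Tle1 each missed the threshold with at least 1 library left out. Fgfr1, St8sia6 and Cdh7 missed it with 4 of the libraries left out in turn. Of the genes from Tmem178a to Tle1, only Osbpl3 was called as different from the rest (adjusted p = 0.0301 by edgeR).

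Subclusters 8 and 5 shared 22 called genes, 34.4% of each list, and all 22 changed in the same direction. The lists come from different nuclei of the same libraries. Agreement in direction over all genes tested in both was not counted, so shared calls between subclusters are descriptions. Subcluster 1 shared 12 calls with subcluster 8 and 13 with subcluster 5. In subcluster 1, Bcl2 rose by 1.58 and Calcr by 1.19, and Bcar3 was at 37.8, 35.5 and 35.3 CPM against 14.1, 12.3 and 12.3 CPM, a change of -1.49.

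Subcluster 4 differed from the rest in the other direction. Ubash3b was at 43.4, 55.4 and 36.3 CPM in the saline and 32.7, 28.7 and 46.4 CPM in the naloxone libraries, with overlapping groups, and its change differed from that of the other Drd2 nuclei by -1.99 (adjusted p = 2.91e-05) in edgeR. Bcl2, at 55.5, 76.5 and 46.1 CPM against 48.2, 50.4 and 66.6 CPM, differed by -1.49 (adjusted p = 7.38e-05), and Homer1, at 512, 416 and 589 CPM against 464, 449.6 and 371 CPM, by -0.85 (adjusted p = 0.00362). All 12 genes called in this test (0.102% of 11719) had the lower change in subcluster 4. The same test called 39 genes for subcluster 8 (0.336%), 16 for subcluster 5 (0.136%), 8 for subcluster 1 (0.068%), 1 each for subclusters 3 and 7 (0.00865% and 0.00826%), and 0 for subcluster 2, where 460 genes had an unadjusted p under 0.05. Chordc1 had estimates below 0 in the 7 subclusters tested, from -0.90 to -0.53, and Camk1g estimates above 0, from 0.77 to 1.48; neither was called as different between subclusters.

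**Figure D5:**
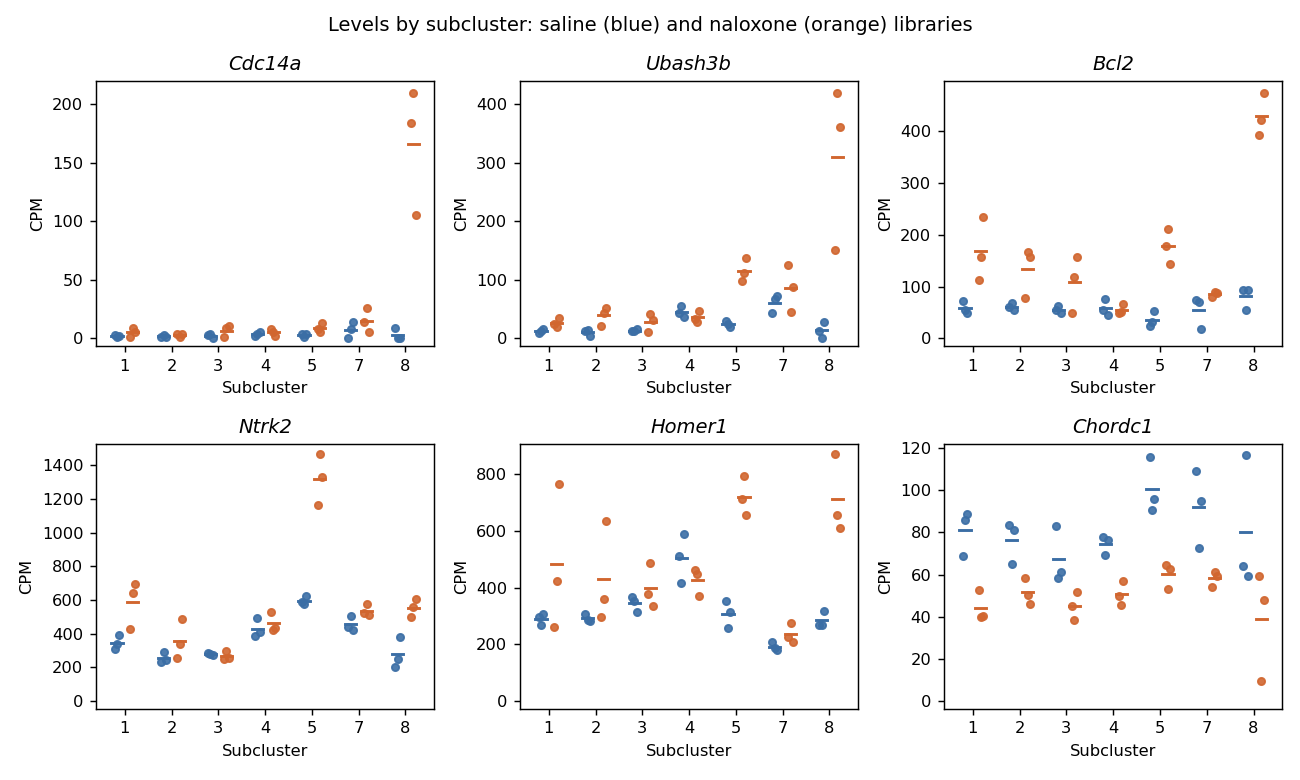
CPM of 6 genes in the 7 subclusters tested; each point is a library and lines are group means. Cdc14a reaches 105 to 209 CPM in the naloxone libraries of subcluster 8, and the groups of Bcl2 and Ubash3b overlap in subcluster 4.

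Leaving out subclusters lowered the number of calls, while most estimates moved little. Without subcluster 8, 12 of the 18 calls remained in edgeR. Of the genes that missed the threshold, Bcl2 was at 1.10 (adjusted p = 0.0626), Zbtb16 at 1.14 (adjusted p = 0.0915), Bach2 at 0.63 (adjusted p = 0.0671), Chga at 0.44 (adjusted p = 0.128) and Itgav at -0.66 (adjusted p = 0.0737), beside 1.23, 1.15, 0.70, 0.54 and -0.67 with it. Cdc14a moved most, from 1.74 to 0.82.

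Without subclusters 8 and 5, 4 calls remained in edgeR: Camk1g (1.07, adjusted p = 0.0266), Haus2 (-1.35, adjusted p = 0.0368), Bcar3 (-1.15, adjusted p = 0.0266) and Chordc1 (-0.65, adjusted p = 0.0368). Ivns1abp just missed the threshold (-0.64, adjusted p = 0.0501). Zbtb16, Gng2, Osbpl10, Entpd3 and MGC94891 were at 1.05, 1.00, 0.51, -0.60 and -0.75, beside 1.15, 1.20, 0.57, -0.63 and -0.83 over all Drd2 nuclei. Bcl2 was at 1.00 and Calcr at 0.58, and Ubash3b, at 0.84 beside 1.36, and Cdc14a, at 0.75, moved by over 1.5 times.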

How the data were processed

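Single nuclei of rat nucleus accumbens were measured in 6 libraries made with 10x GEM-X 3' chemistry, per the labels' protocols. The deposited values are raw UMI counts per gene and barcode; the submitters' processing notes name Cell Ranger 9.0.1 and build mRatBN7.2, and the annotation is not given in the sources used here. Members and gene lists were chosen with earlier results of these data known. Counts were summed per library over the chosen nuclei and tested with edgeR 4.0.16 (quasi-likelihood, TMM factors, its default filter on low counts, Benjamini-Hochberg adjustment over all genes tested, threshold 0.05); DESeq2 1.42.0 was an alternative. Oligodendrocyte nuclei had at least 2 Mog UMIs and no Gad1 or Gad2 UMI. Doublets were called with Scrublet at an expected 0.4% per 1000 nuclei and kept. Clustering in scanpy 1.11.5 used 2000 variable genes, 20 components, 15 neighbours and Leiden resolution 0.5; a planned clustering that kept naloxone-responsive genes was replaced after the data were seen. Intervals cover counting error only. The fits were tested on simulated data. Named genes were the 12 largest changes each way for naloxone (mean of at least 10 CPM, groups apart) plus called list members, the 12 largest each way between classes (at least 20 CPM, same sign in 6 libraries) plus list members, and the 8 largest each way for the interaction. In subclusters they were the 6 largest each way that clustering had not used, a rule chosen after the data were seen.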

Additional observations from a re-analysis of the deposited data

Results flagged for a closer look

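The following genes had a naloxone change that differed between sets of nuclei by a test of the difference itself (edgeR, adjusted), and all values are differences of log2 changes. Between Drd2 and Drd1 nuclei these were Oprm1 (1.31), Grik1 (0.78), Dscam (0.98), Etv5 (1.66), Bcl2 (1.09), Spred2 (0.77), Ntrk2 (0.71), Shc3 (1.07), Homer1 (0.89), Maml3 (0.64), Tiparp (2.38), Nr4a3 (2.94), Grin3a (0.81), Ubash3b (1.47) and Sik2 (0.70), each more positive in Drd2 nuclei.

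Between a subcluster and the other Drd2 nuclei, the 6 largest among genes that clustering had not used were, for subcluster 8, Cdc14a (5.05), Ubash3b (3.15), Agmo (-2.95), Etv5 (2.46), Ptn (2.05) and Galnt18 (1.89). For subcluster 5 they were Notch2 (1.51), Osbpl3 (-1.23), Hs6st3 (-1.17), Dlc1 (-0.97), ENSRNOG00000069594 (0.92) and Homer1 (0.83). For subcluster 4 they were Nr4a3 (-3.13), Nts (-2.42), Etv5 (-2.13), Ubash3b (-1.99), Bcl2 (-1.49) and Spred2 (-0.95).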

How the results depend on the processing

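No paired analysis was possible because the groups share no replicate number (1 to 3 for saline, 4 to 6 for naloxone). Of 1304 values of named genes under the alternatives, 1062 kept direction and side of the threshold, 241 kept direction but missed it and 1 reversed, the interaction of Nr4a3 at -0.0895 with stricter gates; the cause was not tested. For naloxone, 18 genes became 104 with DESeq2, 302 without the filter on low counts, 33 with sums by sex, 56 without the nuclei set apart, 4 without subclusters 8 and 5, and 0 to 194 with a library left out. In that fit by sex, the male and female sums of a library counted as separate samples. For Drd2 against Drd1 nuclei, 1131 became 740 with DESeq2, 547 with Pdyn-positive Drd1 nuclei, 2099 with looser and 433 with stricter gates. The interaction's 15 became 38 with Pdyn-positive Drd1 nuclei, 36 and 7 with looser and stricter gates, 39 without the filter, 0 with sums by sex (edgeR, 510 at an unadjusted p under 0.05), and 7 to 27 with a library left out. Without the filter, subclusters 1, 2, 3, 4, 5 and 7 had 179, 54, 37, 41, 178 and 11 calls. DESeq2 called 5, 0, 42, 1 and 41 in subclusters 2, 3, 5, 7 and 8. With a library left out, the calls ran from 8 to 73 in subcluster 1, 0 to 14 in 2, 0 to 11 in 3, 0 to 7 in 4, 17 to 85 in 5, 0 to 1 in 7 and 35 to 58 in 8. The rise in the share of Drd2 nuclei with a UMI went from 2.99 to 1.35 percentage points for Cdc14a and from 11.8 to 6.82 for Ubash3b after thinning to 3000 UMIs. The cause of these shifts was not tested. RLE factors left every count within 1.5 times. Sparse Drd1 UMIs limit the class comparisons, and 28 to 44 nuclei per library limit subcluster 8. Stricter gates left only 6 to 38 Drd1 nuclei per library and the Pdyn condition 6 to 39. All alternatives within subclusters, those that leave out subclusters or the nuclei set apart, and the interaction with Pdyn-positive Drd1 nuclei were chosen after seeing the data.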
